A study of Mus musculus with 8 samples.

Results

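Monocytes that leave the bone marrow fall into classical cells, which carry the surface protein Ly6C, and nonclassical cells, which patrol vessels and depend on the nuclear receptor Nr4a1. Macrophages grown from marrow with the growth factor M-CSF pass through a monocyte stage, and transcripts of that stage usually decline as the cells mature. The 9 genes described here are markers of these stages and were chosen by name, out of 26667 gene symbols in the deposited count table. Ly6c1, Ly6c2, Hp, Plac8, Vcan and Fn1 stand for the classical state, and Nr4a1, Spn and Treml4 for the nonclassical one, so the set is not made of genes of immature cells alone.

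Bone-marrow-derived macrophages of C57BL/6 mice were profiled by poly(A) RNA sequencing, with 4 Dnmt3a KO and 4 WT libraries taken at day 8 to 10. Dnmt3a is an enzyme that adds methyl groups to DNA. All cultures received M-CSF at 30 ng/ml and 10% serum, and the labels name no further stimulus. The labels do not say how Dnmt3a was removed, in which cells, or whether each library had a mouse of its own. The p-values therefore measure the spread between libraries, which may be technical. Library numbers ran from 9 to 12 for Dnmt3a KO and from 1 to 4 for WT, and so library order and genotype cannot be told apart.

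Dnmt3a had 29.1, 37.6, 35.6 and 35.4 CPM (read counts scaled to the size of the library) in the KO libraries and 150, 155, 168 and 170 CPM in the WT libraries. Total counts ran from 12614006 to 20801015 in KO and from 15505309 to 28502631 in WT. WT replicate 1 stood apart from the other 7 libraries on the first principal component, at -64.2 against -8.24 to 27.2. Csf1r, the M-CSF receptor gene, averaged 2063 ± 243 CPM in KO and 2109 ± 99.5 CPM in WT (SD, n = 4 each), so the defining receptor of the cell type was present in both genotypes.

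Ly6c2 and Ly6c1 are neighbouring genes on chromosome 15 whose products are variants of the Ly6C surface protein. In GRCm38, the assembly also called mm10, Ly6c2 lies at chr15:75108158-75111970 and Ly6c1 at chr15:75044018-75048830, both on the minus strand. Their longest coding transcripts have 822 and 844 bases, and 802 of 822 aligned bases are identical (97.6%). The longest shared run is 188 bases. Of all 100-base windows of the Ly6c2 transcript, 15.8% also occur unchanged in Ly6c1, and the share is 32.6% for 50-base windows. Reads from such windows cannot be assigned to one gene with certainty, and how the authors' counting treated them is not stated in the labels or headers.

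The 250 bases before a RefSeq transcript start are shown for 3 genes because the upstream regions of the pair differ more than the transcripts do. Capitals in the Ly6c2 and Ly6c1 lines mark bases that differ within the aligned stretch or face a gap in it, and 170 of the 212 bases aligned without a gap are identical (80.2%). Nr4a1 is shown beside them for its CG content, with each CG in capitals. Its window lies before the start in the RefSeq table, which is downstream of the first start in the GENCODE annotation, so the window falls inside the gene span given below. The sequences are those of RefSeq for GRCm38.p6, written 5′ to 3′ on the strand of the gene, at chr15:75111972-75112221 (minus), chr15:75048838-75049087 (minus) and chr15:101266596-101266845 (plus).
Ly6c2: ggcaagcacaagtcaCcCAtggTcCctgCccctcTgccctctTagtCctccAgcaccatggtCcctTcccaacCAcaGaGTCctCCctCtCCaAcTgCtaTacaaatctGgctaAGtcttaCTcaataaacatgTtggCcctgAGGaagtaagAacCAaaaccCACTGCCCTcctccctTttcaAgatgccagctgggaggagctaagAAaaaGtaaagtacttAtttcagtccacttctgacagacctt
Ly6c1: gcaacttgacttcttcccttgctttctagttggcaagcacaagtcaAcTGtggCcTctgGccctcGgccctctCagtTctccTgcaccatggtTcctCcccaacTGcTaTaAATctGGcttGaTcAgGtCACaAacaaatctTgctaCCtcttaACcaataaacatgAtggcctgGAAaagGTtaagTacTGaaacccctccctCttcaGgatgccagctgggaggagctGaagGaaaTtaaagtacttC
Nr4a1: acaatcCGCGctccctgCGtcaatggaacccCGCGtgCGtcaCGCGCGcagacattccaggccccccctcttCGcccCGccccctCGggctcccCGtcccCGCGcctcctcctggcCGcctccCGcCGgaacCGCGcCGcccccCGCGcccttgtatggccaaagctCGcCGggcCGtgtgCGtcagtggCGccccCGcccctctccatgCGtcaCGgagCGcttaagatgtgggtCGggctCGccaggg

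Dnmt3a acts on CG dinucleotides, so these were counted in the same window for the 7 members with a RefSeq promoter entry (all but Hp and Fn1) and for 27025 promoters. The median over all promoters was 6 CGs. The Ly6c2 window held 0, a state shared by 8.27% of promoters, and the Ly6c1 window held 1. Treml4 had 2, Spn 3, Plac8 4 and Vcan 10. The Nr4a1 window held 34, and 3.33% of promoters had at least as many. The letters GAGGAAGT, a form bound by the myeloid factor PU.1, were searched on both strands and occurred in the Ly6c2 window alone, against 2.42% of all promoters. TTGCNNAA, a form bound by C/EBP factors, occurred in 0 of the 7, against 9.55% of all. These matches describe the letters in this window and nothing about binding or methylation, which were not measured here.

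At the transcript level, Hp rose in Dnmt3a KO macrophages, by 1.76-fold, and the other 7 tested monocyte genes did not pass the test. The call of Hp was lost in 6 of 8 fits with 1 library left out. Its log2 fold change ran from 0.73 to 0.94 over 17 alternatives. Ly6c2 was 1.61-fold higher in KO, with groups that did not overlap, but its adjusted p was 0.115. The classical genes Plac8, Vcan and Fn1 also had positive log2 fold changes that did not pass, while Nr4a1 and Spn had negative ones and Treml4 a positive one. Ly6c1 was close to undetected in both genotypes.

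**Figure D1:**
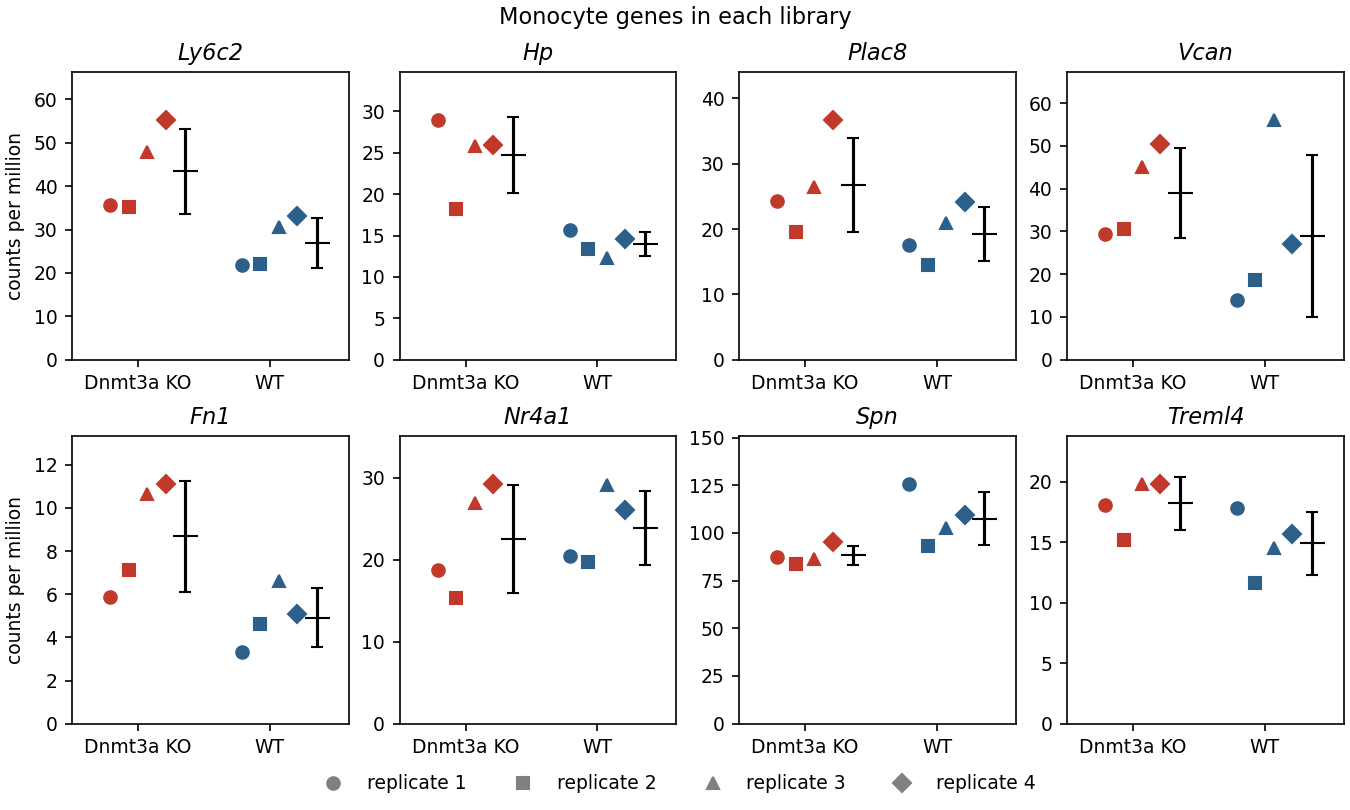
CPM of the 8 tested monocyte genes in each library (y axis from 0, one panel per gene), Dnmt3a KO in red and WT in blue, with a marker shape per replicate number. Black bars give the mean and SD of 4 libraries. Ly6c2 and Hp are the panels in which every KO library lies above every WT library.

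Genes were tested with the edgeR quasi-likelihood test and Benjamini-Hochberg adjustment over 12507 genes, at a threshold of 0.05. Of the 8 members that passed the filter on low counts, 1 rose, 0 fell and 7 did not pass, where 1.61% of all tested genes were called in either direction and 1.22% were called as higher in KO. At an unadjusted p under 0.05, 4 members were higher and 1 was lower, with 1583 of all tested genes below it (12.7%). DESeq2 called 2 members as higher and 0 as lower, against 4.41% of all tested genes called by it, and limma-voom called 1 and 0, against 1.51%. The median log2 fold change of the 8 was 0.45, against -0.02 over all tested genes, and 6 of 8 were positive, against 46.9% of all.

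**Figure D2:**
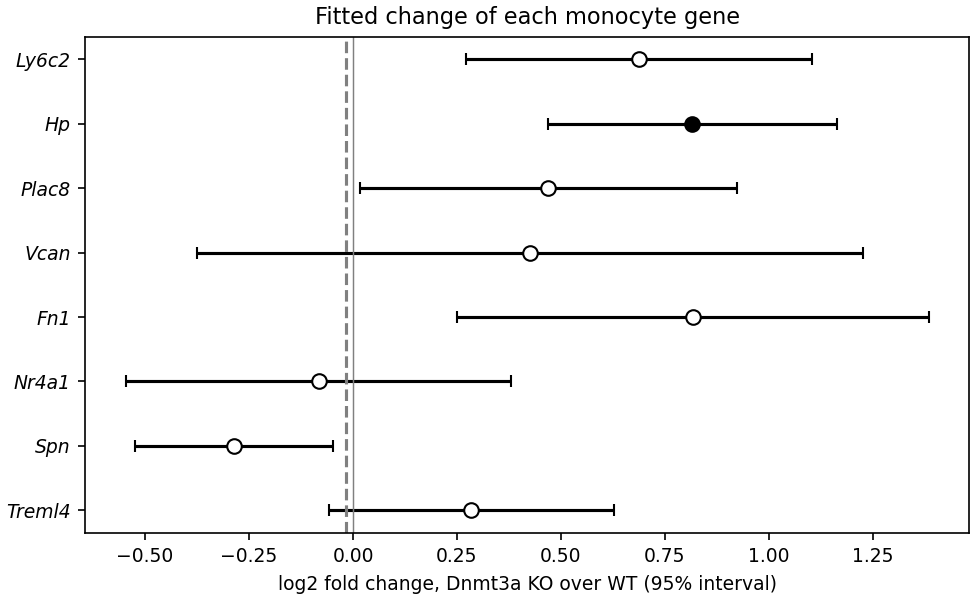
Log2 fold change of the 8 tested monocyte genes, Dnmt3a KO over WT (x axis), with 95% intervals from edgeR. The filled point passed the adjusted threshold (Hp) and the open points did not; the dashed line is the median of all tested genes, -0.02.

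Ly6c2 encodes the Ly6C surface protein by which classical monocytes are sorted. It had 35.6, 35.2, 47.8 and 55.2 CPM in KO replicates 1 to 4, and 21.7, 22.1, 30.6 and 33.2 CPM in WT replicates 1 to 4. The lowest KO library lay just above the highest WT library, and 2 of 8 members were separated between the genotypes in this way, against 9.41% of all tested genes. Means were 43.5 ± 9.78 CPM in KO and 26.9 ± 5.86 CPM in WT (SD, n = 4 each). This gave a log2 fold change of 0.69 ± 0.19 (SE), with a 95% interval from 0.27 to 1.10 and an edgeR adjusted p of 0.115. Ly6c2 passed the threshold with no filter on low counts (adjusted p 0.0240, edgeR, with 1.82% of genes called) and with DESeq2 (0.0221), and its edgeR adjusted p reached 0.319 when single libraries were left out. In the authors' deposited table, which gives WT over KO, its log2 fold change was -0.69 with an adjusted p of 0.0272.

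Ly6c1, which endothelial cells also transcribe, had 1 count in KO replicate 2 and 0 in each of the other 7 libraries. A count of 3 is the limit that 0 observed counts allow, and it was used as a floor for both genotypes. It equals 0.0468 CPM over the KO libraries and 0.0389 CPM over the WT libraries. As KO held 1 count, its own upper limit is higher than this. The counts of both genotypes were below the floor of 3, so no fold was formed. Nearly all counts of the pair were thus assigned to Ly6c2, and with the counts of both genes summed the number of called monocyte genes stayed at 1. The sum added only 1 count, so it could hardly change a call. It does not cover any reads that were counted for neither gene.

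Hp, the gene of haptoglobin, lies at chr8:109575128-109579172 on the minus strand. Haptoglobin binds free haemoglobin, is secreted mainly by the liver, and is also made by myeloid cells. Hp had 28.9, 18.2, 25.9 and 25.9 CPM in KO and 15.6, 13.4, 12.3 and 14.6 CPM in WT. The lowest KO library was above the highest WT library, and the KO values were the more spread. Means were 24.7 ± 4.61 CPM in KO and 14.0 ± 1.44 CPM in WT (SD, n = 4 each). This gave a log2 fold change of 0.82 ± 0.16 (SE; 95% interval 0.47 to 1.16), with an edgeR adjusted p of 0.0258. The call was lost in 6 of 8 fits with 1 library left out, those without WT replicates 2 (adjusted p 0.0930), 3 (0.0826) or 4 (0.0575) and without KO replicates 1 (0.0914), 3 (0.0792) or 4 (0.0954, all edgeR). The call held without WT replicate 1 (adjusted p 0.00419) or KO replicate 2 (0.0130, both edgeR). The log2 fold change itself ran from 0.73 to 0.94 over 17 alternatives, and in the authors' deposited table the adjusted p was 2.05e-04.

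Plac8 encodes a small cysteine-rich protein found in immune cells and lies at chr5:100553725-100572245. It had 24.3, 19.6, 26.4 and 36.7 CPM in KO and 17.6, 14.4, 20.9 and 24.1 CPM in WT. The groups overlapped, and the highest value of all was KO replicate 4. Its log2 fold change was 0.47 ± 0.21 (SE; 95% interval 0.02 to 0.92) with an edgeR adjusted p of 0.377.

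Fn1 and Vcan encode secreted proteins of the extracellular matrix, the glycoprotein fibronectin and the proteoglycan versican. Fn1, at chr1:71585520-71653200, had 5.86, 7.11, 10.6 and 11.1 CPM in KO and 3.31, 4.64, 6.61 and 5.08 CPM in WT. KO replicate 1 lay below WT replicate 3, and every other KO library lay above all WT libraries. The log2 fold change of Fn1 was 0.82 ± 0.26 (SE), as large as that of Hp, with a 95% interval from 0.25 to 1.38 and an edgeR adjusted p of 0.178. Fn1 was the tested member with the fewest counts, 52 in its lowest library. Of its 11685 exonic bases 292 overlap Apol7d on the other strand, and Apol7d had 0 counts.

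Vcan, at chr13:89655312-89742509, had 29.5, 30.5, 45.2 and 50.4 CPM in KO and 13.9, 18.7, 56.0 and 27.1 CPM in WT. WT replicate 3 was the highest of all 8 libraries and WT replicate 1 the lowest, so the WT range enclosed the KO range. The log2 fold change was 0.43 ± 0.37 (SE), with a 95% interval from -0.38 to 1.23 and an edgeR adjusted p of 0.680. The value ran from 0.20 to 0.96 over the alternatives, with no call in any of the 17.

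Nr4a1 encodes the nuclear receptor required for nonclassical monocytes and is also induced within minutes of many stimuli. At chr15:101254269-101274795 on the plus strand, it had 18.7, 15.4, 27.0 and 29.2 CPM in KO and 20.5, 19.7, 29.1 and 26.1 CPM in WT. The groups overlapped over most of their range. Its log2 fold change was -0.08 ± 0.21 (SE), with a 95% interval from -0.55 to 0.38 and an edgeR adjusted p of 0.901, and its sign turned when WT replicate 3 or KO replicate 2 was left out.

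Spn encodes CD43, a heavily glycosylated surface protein that is high on nonclassical monocytes. At chr7:127132232-127137823 on the minus strand, it had 87.5, 83.6, 86.3 and 95.5 CPM in KO and 125.6, 93.0, 102.4 and 109.3 CPM in WT. Only KO replicate 4 reached above the lowest WT library. The log2 fold change was -0.29 ± 0.11 (SE; 95% interval -0.52 to -0.05) with an edgeR adjusted p of 0.284. It stayed negative in all 17 alternatives, from -0.35 to -0.20, and passed in none of them.

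Treml4 encodes a receptor of the TREM family carried by nonclassical monocytes and some macrophages. At chr17:48264295-48275360 on the plus strand, it had 18.1, 15.2, 19.8 and 19.8 CPM in KO and 17.9, 11.6, 14.5 and 15.7 CPM in WT. WT replicates 1 and 4 lay inside the KO range. Its log2 fold change was 0.28 ± 0.16 (SE; 95% interval -0.06 to 0.63), with an edgeR adjusted p of 0.50, so the 3 nonclassical genes did not share a sign.

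To compare levels between genes, CPM was divided by the length of the merged exons, which gives CPM per kilobase (RPKM). In KO the mean level per length was 18.9 RPKM for Spn, 16.8 for Plac8, 15.9 for Ly6c2 and 15.4 for Hp, and the ranges of these neighbours overlapped. Treml4 at 9.13 RPKM and Nr4a1 at 6.43 RPKM came next and overlapped each other, below every KO value of Hp. Vcan at 2.69 RPKM and Fn1 at 0.743 RPKM were each separated from the gene above. The order of mean levels in WT was the same, with 23.0 RPKM for Spn, 12.1 for Plac8, 9.82 for Ly6c2, 8.72 for Hp, 7.48 for Treml4, 6.80 for Nr4a1, 2.001 for Vcan and 0.420 for Fn1. In WT, Spn stood clear of Plac8, the 5 genes from Plac8 to Nr4a1 formed a chain in which each range overlapped the next, and Vcan and Fn1 again stood apart. The merged exons of Ly6c2 span 2740 bases, more than its 822-base longest coding transcript, so its level per length depends on the isoforms counted. In bulk RNA, fewer cells of a type and less RNA per cell cannot be told apart, and this holds for every value given here.

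Within each genotype, 5 of the tested members varied together across libraries. In Ly6c2, Plac8, Vcan, Fn1 and Nr4a1, replicates 3 and 4 were both above replicates 1 and 2 in KO and likewise in WT, a pattern seen in 5.31% of all tested genes. After the mean of each genotype was removed, the 10 pairs among these 5 genes had Pearson r from 0.58 to 0.92 over 8 libraries, and the highest was for Ly6c2 with Nr4a1. By comparison, the median r of Ly6c2 with all tested genes was 0.02. Hp took no part in this pattern, with r of 0.12 with Ly6c2. Spn and Treml4 had r of 0.89 with each other, and Treml4 also had 0.66 with Hp, 0.65 with Plac8 and 0.53 with Nr4a1. The 5 genes were picked after their values were seen, the points share libraries and scaling, and the labels name no batch that sets replicates 3 and 4 apart, so these values are a description.

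**Figure D3:**
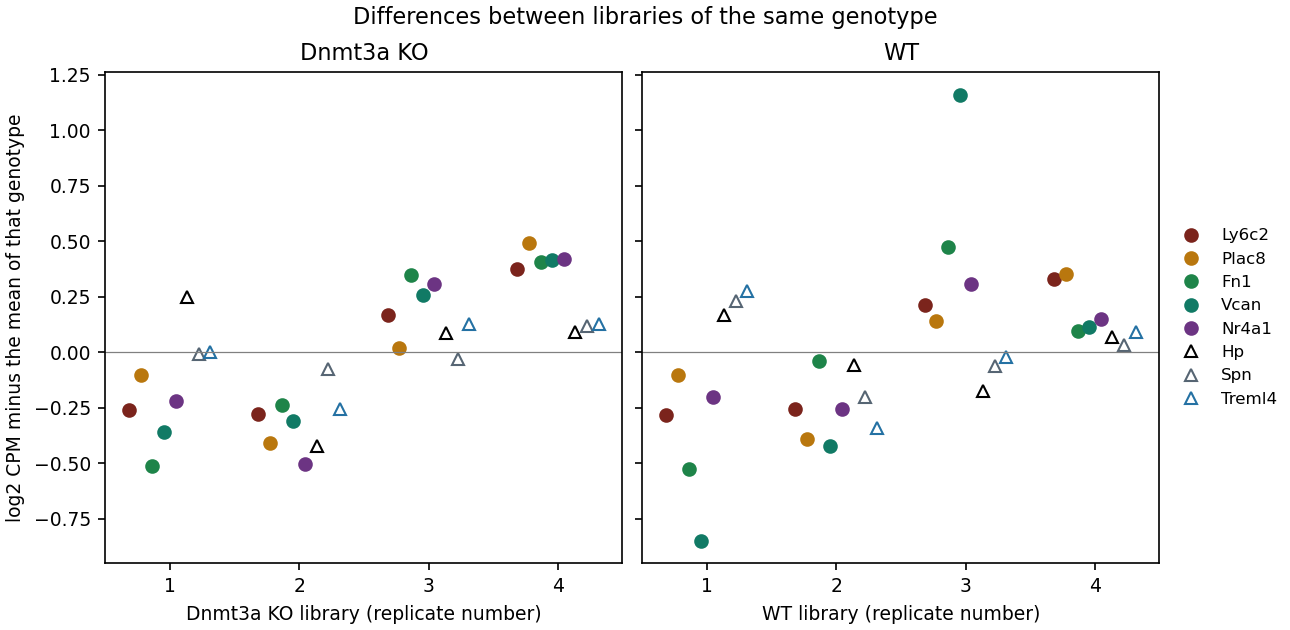
Log2 CPM of each tested monocyte gene in each library less the mean of its genotype (y axis), for Dnmt3a KO (left) and WT (right), by replicate number. Filled circles are Ly6c2, Plac8, Fn1, Vcan and Nr4a1, which sit low in replicates 1 and 2 and higher in replicates 3 and 4 of both genotypes; open triangles are Hp, Spn and Treml4, which do not.

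Because these genes varied together, the ratio of counts of 1 member to another in the same library was formed for the 28 pairs of tested members. In 10 of the 28 the genotypes did not overlap. For comparison, 20.3% of the 100048 ratios of a tested member to any other tested gene did not overlap. The ratio of Ly6c2 to Nr4a1 was 1.90, 2.29, 1.77 and 1.89 in KO and 1.06, 1.123, 1.051 and 1.27 in WT. Every KO library had more Ly6c2 counts per Nr4a1 count than any WT library, with a wide gap between the groups. The SD of log2 values within genotypes was 0.32 for Ly6c2, 0.36 for Nr4a1 and 0.14 for their ratio, so each gene varied more between libraries than their ratio did.

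The ratio of Spn to Treml4, both nonclassical genes, was 4.83, 5.51, 4.36 and 4.82 in KO and 7.03, 8.00, 7.04 and 6.96 in WT. Here the KO libraries were all lower. Also separated were the ratios of Ly6c2, Hp, Plac8 and Fn1 to Spn, of Hp, Plac8 and Fn1 to Nr4a1, and of Hp to Treml4. In Hp to Spn, the KO libraries held 0.331, 0.217, 0.300 and 0.271 and the WT libraries 0.124, 0.144, 0.120 and 0.134. Every separated ratio of a classical to a nonclassical gene was higher in KO. The pairs shown were chosen after their values were seen, the ratios share genes and libraries, and a ratio shows unequal change and not which of the genes moved.

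**Figure D4:**
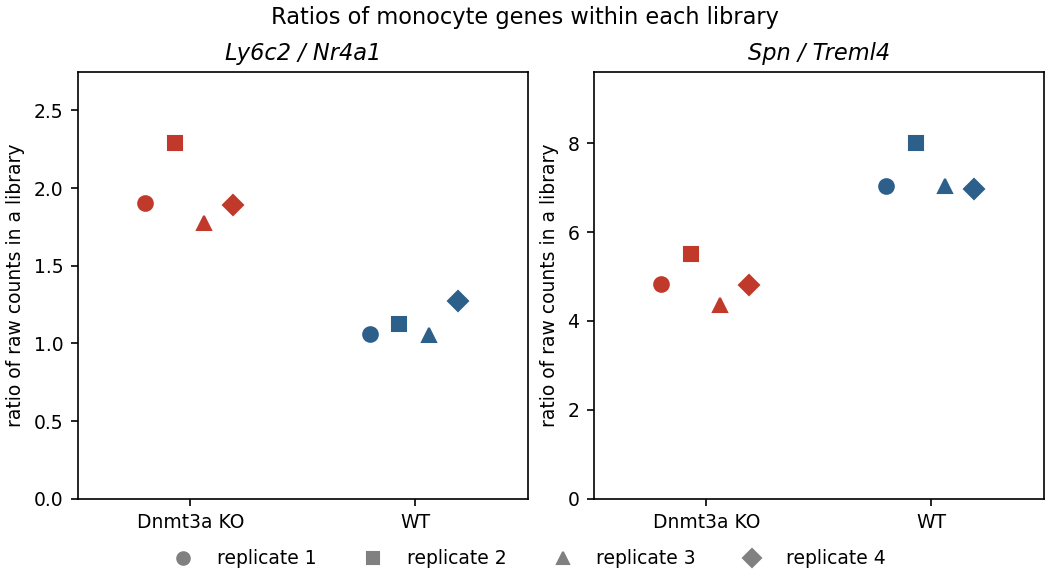
Ratio of raw counts in each library (y axis from 0) for Ly6c2 to Nr4a1 (left) and Spn to Treml4 (right), Dnmt3a KO in red and WT in blue, with a marker shape per replicate number. KO libraries lie between 1.77 and 2.29 against 1.051 to 1.27 in WT on the left, and between 4.36 and 5.51 against 6.96 to 8.00 on the right.

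The genes whose log2 CPM was most like that of each member over the 8 libraries were searched among tested genes averaging 10 CPM or more. For Ly6c2 these were Trf, the transferrin gene, with r of 0.99, and Vps4a and Map4k4, each with 0.97. Trf averaged 94.9 CPM in KO and 56.4 CPM in WT, with an edgeR adjusted p of 0.0698. Hp was most like G6pdx and Smad6, each with r of 0.98, and Lzts2 with 0.97. Lzts2 rose in KO, to 21.0 CPM against 5.65 CPM in WT (edgeR adjusted p 8.31e-04). Spn was most like Ccnf, the cyclin F gene, Fn1 like Map4k4, Vcan like the integrin gene Itga1, Plac8 like Opa3, Nr4a1 like the actinin gene Actn1 and Treml4 like Pink1, with r from 0.966 to 0.995. With 8 libraries and 8388 genes searched for most members, high r values arise readily, and these are given as descriptions.

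Among 15 other classical monocyte genes, 3 rose and 0 fell, against 1.61% of all tested genes called by edgeR in either direction. The median log2 fold change was 0.35, and 12 were positive. F10, the coagulation factor X gene, averaged 31.4 ± 5.31 CPM in KO and 10.4 ± 1.62 CPM in WT, 3.03-fold higher (edgeR adjusted p 5.71e-04). Mmp8, a collagenase gene that neutrophils also use, averaged 147 ± 18.4 CPM in KO and 60.3 ± 20.3 CPM in WT (2.43-fold, edgeR adjusted p 0.00820). Chil3, a chitinase-like gene listed under the older symbol Chi3l3, averaged 130 ± 13.8 CPM in KO and 58.6 ± 15.9 CPM in WT (2.22-fold, edgeR adjusted p 0.00828; SD, n = 4 for each of these genes). All 3 calls held in all 17 alternatives, unlike that of Hp. S100a4 and Thbs1, both in the same list, had log2 fold changes of -0.32 and 0.18 that did not pass. S100a4 had 1418 CPM in WT replicate 1 and 852 to 902 CPM in the other WT libraries, against 721 to 908 CPM in KO. Thbs1 lay between 184 and 651 CPM in KO and between 123 and 603 CPM in WT. With an unadjusted p under 0.05 there were 6 higher and 0 lower genes in the list, and DESeq2 and limma-voom each called 4 as higher and 0 as lower. Over all tested genes 12.7% had such a p, and DESeq2 called 4.41% and limma-voom 1.51%.

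Of 15 nonclassical monocyte genes, 13 were tested, and 0 rose and 0 fell by edgeR. The median log2 fold change was 0.03, and 8 of 13 were positive. Cx3cr1, the fractalkine receptor gene that marks nonclassical monocytes, averaged 162 ± 29.3 CPM in KO and 220 ± 25.4 CPM in WT (SD, n = 4 each). Its KO range of 129 to 194 CPM lay below its WT range of 199.95 to 254 CPM, with an edgeR adjusted p of 0.172. Itgal, an integrin gene, went the other way in its values, with 373 ± 20.4 CPM in KO and 286 ± 29.1 CPM in WT (edgeR adjusted p 0.0942). Cd36, a scavenger receptor gene, had a log2 fold change of 0.69 (edgeR adjusted p 0.164), with WT replicate 1 far below the other WT libraries. In 5 of the 13 the groups did not overlap, against 9.41% of all tested genes. Of these 5, 4 were higher in KO, Itgal and Cd36 included. By unadjusted p under 0.05, 4 of the list were higher and 2 lower, DESeq2 called 4 and 0, and limma-voom called 0 in either direction. The shares of all tested genes, in either direction, were 12.7%, 4.41% and 1.51%.

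**Figure D5:**
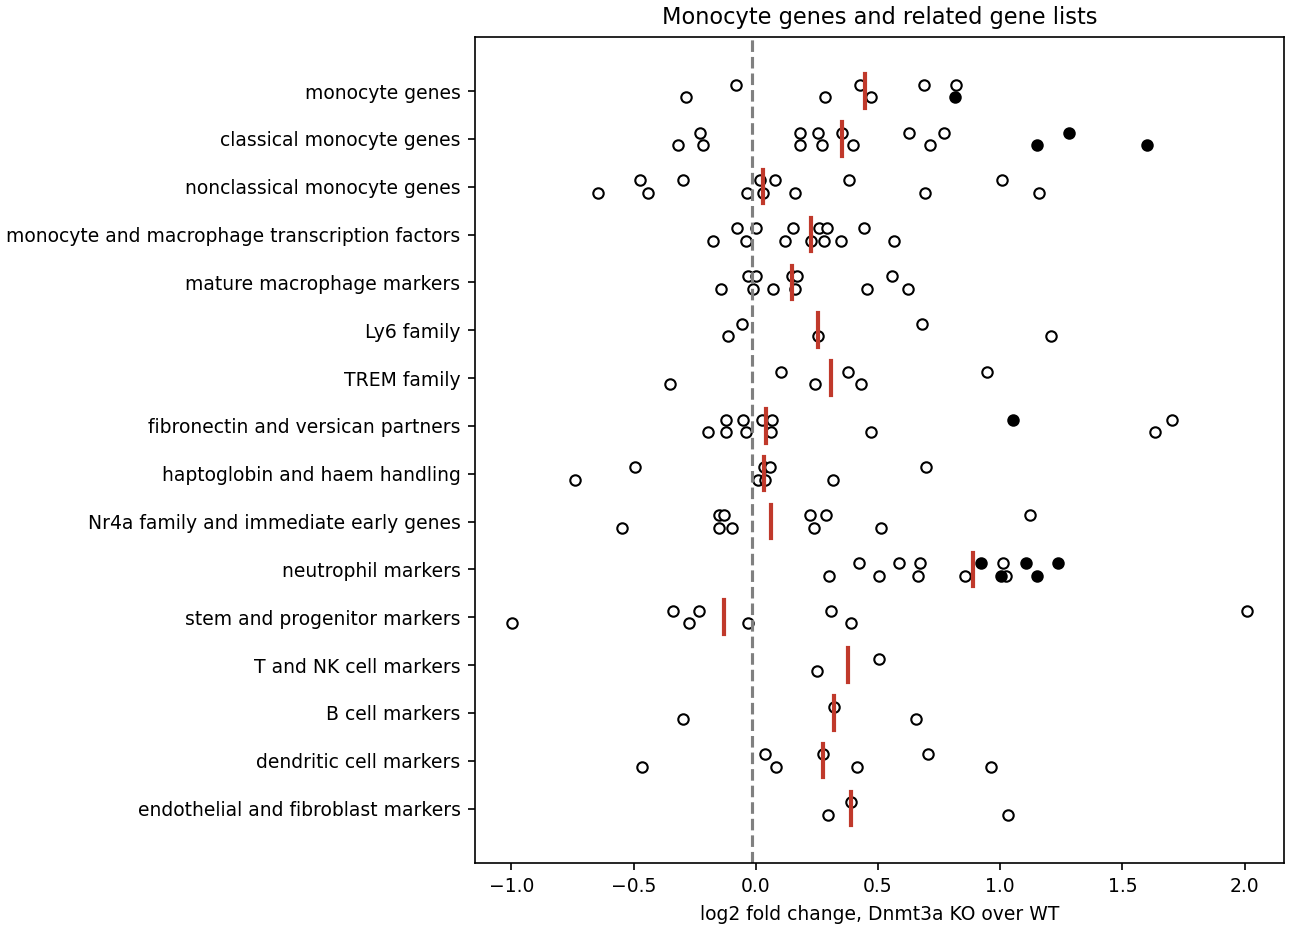
Log2 fold changes of tested genes, Dnmt3a KO over WT (x axis), in the monocyte genes and 15 related lists, 1 point per gene. Filled points passed the edgeR adjusted threshold, red bars are list medians and the dashed line is the median of all tested genes, -0.02. Filled points occur in the monocyte genes, the classical monocyte genes, the fibronectin and versican partners and the neutrophil markers.

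In 7 lists of regulators, family members and partners of the 9 genes and of macrophage markers, 1 of 65 tested genes was called (1.54%), near the share of all tested genes. Of 13 transcription factor genes of monocytes and macrophages, 0 passed, with a median log2 fold change of 0.23. Spi1, which encodes PU.1, averaged 685 ± 100.2 CPM in KO and 722 ± 210 CPM in WT (SD, n = 4 each, edgeR adjusted p 0.895). WT replicate 1 had 1036 CPM of Spi1. The other WT libraries, at 598 to 635 CPM, lay inside the KO range of 543 to 777 CPM. In the Nr4a family and immediate early genes 0 of 10 passed, with a median of 0.06. Of 11 tested mature macrophage markers 0 passed, 7 were positive and the median was 0.15. Csf1r had a log2 fold change of -0.03, and the lysozyme gene Lyz2 one of 0.45, with 6251 to 9045 CPM in KO and 5236 to 6389 CPM in WT (edgeR adjusted p 0.112). At an unadjusted p under 0.05 these 3 lists had 4, 2 and 2 genes higher and 0 lower, DESeq2 called 0, 1 and 1 as higher, and limma-voom called 0 in each. The shares of all tested genes for these 3 measures, in either direction, were 12.7%, 4.41% and 1.51%.

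Among 12 Ly6 family genes in the table besides the pair, 5 were tested and 0 passed. Ly6a, which encodes the stem cell antigen Sca-1, averaged 80.1 ± 20.01 CPM in KO and 50.002 ± 7.53 CPM in WT (SD, n = 4 each). Its log2 fold change of 0.68 was close to that of Ly6c2, with an edgeR adjusted p of 0.0942. The lowest KO library of Ly6a, at 56.4 CPM, lay just above the highest WT library, at 55.9 CPM. Of the 5 tested Ly6 genes, 1 was separated in this way, against 9.41% of all tested genes. Ly6e, a broadly used member, had a log2 fold change of 0.26. None of the 6 TREM family genes passed, with a median of 0.31, and Trem2, a lipid-sensing receptor gene, averaged 418 ± 40.0 CPM in KO and 534 ± 166 CPM in WT. WT replicate 1 was the highest for Trem2, at 771 CPM. The other WT libraries, at 409 to 524 CPM, overlapped the KO range of 376 to 470 CPM. At an unadjusted p under 0.05, the Ly6 list had 2 genes higher and the TREM list 1, DESeq2 called 1 in each, and limma-voom called 0. Of all tested genes, in either direction, 12.7% had such a p, DESeq2 called 4.41% and limma-voom 1.51%.

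Of 12 tested partners of fibronectin and versican, which are integrins, other receptors and modifying enzymes, 1 rose and 0 fell. Itgb3, the integrin beta 3 gene whose product binds fibronectin, averaged 36.7 ± 6.37 CPM in KO and 17.7 ± 4.50 CPM in WT (2.07-fold, edgeR adjusted p 0.0164; SD, n = 4 each). The call was lost without WT replicate 2 (adjusted p 0.0700), KO replicate 2 (0.0635) or KO replicate 4 (0.0586, all edgeR). Cd44, a hyaluronan receptor gene, and Itgav, the usual partner of Itgb3, had log2 fold changes of 0.06 and -0.12. Of 8 genes of haptoglobin and haem handling 0 passed, and Hmox1, which breaks down haem, averaged 894 ± 129 CPM in KO and 718 ± 70.6 CPM in WT (edgeR adjusted p 0.298). In the haem list an unadjusted p under 0.05 was reached by 2 higher and 1 lower gene, DESeq2 called 1 as higher, and limma-voom called 0. In the partner list it was reached by 4 higher and 0 lower genes, and DESeq2 called 3 and limma-voom 2, all as higher. Over all tested genes 12.7% reached it, and DESeq2 called 4.41% and limma-voom 1.51%.

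Neutrophil markers were also higher in KO. Of 14 tested neutrophil markers, 5 rose and 0 fell, against 1.61% of all tested genes called by edgeR in either direction. All 14 had positive log2 fold changes, and the median was 0.89. S100a8, S100a9, Lcn2, Ngp and Elane were the called genes, from 1.89-fold for Elane to 2.36-fold for Ngp, and the call of Elane was lost in 7 of 8 fits with 1 library left out. An unadjusted p under 0.05 was reached by 11 higher and 0 lower markers, and DESeq2 called 8 and limma-voom 5 as higher. The shares of all tested genes, in either direction, were 12.7%, 4.41% and 1.51%. The summed level of the 15 markers was 665 to 845 CPM in KO and 286 to 425 CPM in WT. Ly6g, the defining surface marker of mature neutrophils, which was read after these values were seen, had 8 counts over the KO libraries and 9 over the WT libraries. The part of neutrophil or granulocyte precursor RNA in the values of Hp, Mmp8 and the other classical genes was not tested.

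T and NK cell markers summed to 218 to 272 CPM in KO and 102 to 218 CPM in WT, nearly all from Il7r, at 238 ± 22.4 CPM in KO and 168 ± 49.96 CPM in WT. The T-cell receptor complex gene Cd3e had 11 counts over the KO libraries and 8 over the WT libraries. B cell markers summed to 2.19 to 5.83 CPM in KO and 3.43 to 6.23 CPM in WT. Dendritic cell markers summed to 104 to 137 CPM in KO and 74.8 to 111 CPM in WT, and endothelial and fibroblast markers to 20.9 to 23.8 CPM in KO and 10.2 to 20.02 CPM in WT. Stem and progenitor markers summed to 62.0 to 89.5 CPM in KO and 70.8 to 99.4 CPM in WT. In none of these 5 lists did a gene pass by edgeR, with 2, 3, 7, 3 and 8 genes tested in the T and NK, B, dendritic, endothelial and fibroblast, and stem lists. At an unadjusted p under 0.05 the dendritic list had 2 higher, the T and NK list 1 higher, the stem list 1 in each direction and the other lists 0. DESeq2 and limma-voom each called 1 stem and progenitor gene as lower and no other gene of these lists. Over all tested genes, in either direction, 12.7% had an unadjusted p under 0.05, and DESeq2 called 4.41% and limma-voom 1.51%. The part of the cells marked by these lists in the values of the monocyte genes was not tested.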

How the data were processed

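Reads were trimmed with Trimmomatic 0.39, aligned with STAR 2.7.0a and counted with featureCounts against mm10, per the submitters' processing notes. Neither the settings nor the annotation used for counting is stated there. Libraries were made with poly(A) selection from 10 ng of RNA by a kit that does not mark strand, per the labels' protocols. The authors deposited raw counts per gene symbol for 8 libraries. For the comparison of genotypes the authors deposited a second table, which holds the mean of normalised counts (a signal), the log2 fold change with its standard error, the test score and the raw and adjusted p-value. All 201 genes called here have the opposite sign in that deposited table, so it was read as WT over KO.

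Genes were filtered (filterByExpr, minimum count 10), scaled by TMM and tested with edgeR 4.0.16 in R 4.3.3, with CPM taken on the TMM-scaled library sizes. DESeq2 1.42.0, limma-voom (limma 3.58.1), RLE, upper-quartile or no scaling, no filter or 1 CPM in 4 libraries, a replicate block, each library left out and the Ly6c pair summed were the alternatives. The tests were tried on simulated counts. Exon lengths and positions came from GENCODE M21, and promoters from RefSeq. Of 174 symbols in the other lists 171 were found, 4 of them through a synonym. In 25 symbols a name had turned into a date, with 0.215% of counts. Library totals and the limits drawn from them cover counting error only. All 9 members are named, with every called gene of a list and up to 4 others of highest mean. Ly6g and Cd3e were named outside that rule. The members and lists were chosen with earlier results of these data known.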

Additional observations from a re-analysis of the deposited data

Results flagged for a closer look

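No monocyte gene had a library far from the other 3 of its genotype. Over the monocyte genes, Dnmt3a and the other named genes together this held for 11 of 148 groups of 4 libraries (Dixon's criterion on the gap to the nearest library), where chance gives about 1 in 20. In KO replicate 2, Cebpb had 281 CPM, against 507 to 554 in the other KO libraries, and Itgb1 had 1010 CPM, against 828 to 850. KO replicate 1 had 631 CPM of Fos, against 696 to 706, and KO replicate 4 had 174 CPM of Mmp8, against 136 to 140. In WT replicate 1, Cd36 had 585 CPM, against 1153 to 1249.6 in the other WT libraries, and Cebpb had 684 CPM, against 368 to 397. The same library had 1372 CPM of Itga5, against 1100 to 1118, and 1047 CPM of Junb, against 645 to 676. It also had 1418 CPM of S100a4, against 852 to 902, and 1036 CPM of Spi1, against 598 to 635. WT replicate 2 had 339.9 CPM of Ly6e, against 451 to 469.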

How the results depend on the processing

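The number of genes called, 201, became 399 with no filter, 551 with DESeq2 and 103 (without WT replicate 2) to 484 (without WT replicate 1) with 1 library left out, among them 120, 126 and 118 when KO replicates 1, 2 and 4 were dropped. The count of monocyte genes called, 1, became 2 with no filter and with DESeq2, and ran from 0 to 1 with 1 library left out. The count of other listed genes called, 9, became 19 with no filter, 25 with DESeq2, and 7 to 24 with 1 library left out (24 without WT replicate 1). The log2 fold change of Nr4a1 ran from -0.23 (without KO replicate 4) to 0.066 (without KO replicate 2), and was 0.026 without WT replicate 3. The causes were not tested. With the replicate number as a block, 260 genes, 3 monocyte genes (Ly6c2, Hp and Fn1, with edgeR adjusted p of 0.0117 for Ly6c2 and 0.0483 for Fn1) and 16 other listed genes were called. Same-numbered libraries deviated with r of 0.25, 0.28, 0.07 and -0.02, near 0 in the last 2, so the numbers were not taken to pair the libraries. As a hint from the data and not the design, 3 of 4 KO libraries correlated best with the WT library of their own number. RLE, upper-quartile and no scaling, the stricter filter, limma-voom and the summed Ly6c pair left 1 monocyte gene called. The 4 libraries of each genotype limit the precision, as the width of the intervals shows.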
